A study of Mus musculus with 8 samples.

Results

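Chromosome 15 held 701 of the 16498 regions of histone H3 lysine 9 methylation listed for these cells, 94 of the 1983 H3 K9me2 regions and 607 of the 14515 H3 K9me3 regions. Members were all listed regions on this chromosome after repeat rows had been removed. The chromosome was chosen by the read counts of the KO libraries, because its median region was lower in KO library 1 than in KO library 2 in both marks and relative to other autosomes, so that difference is described here without a test. The cells were mouse embryonic fibroblasts (MEFs, connective tissue cells) from embryonic day 13.5, immortalized with SV40 T, on a C57bl6 background. They either had an intact HAT1 gene (HAT1+/+, WT) or lacked it (HAT1-/-, KO). Each mark was measured by chromatin immunoprecipitation and sequencing in 2 KO and 2 WT libraries, 8 in all. All groups were grown alike and fixed with formaldehyde, and human Dbt immortalized myoblasts were added to all of them as a spike-in. The cells of both genotypes had been immortalized and came from different embryos, so genotype and cell line cannot be told apart. Whether a number (KO 1, KO 2) stands for the same culture in both marks is not stated. Hat1 lies on another chromosome and fibroblast marker genes are not read out by these marks, so the regions described here check neither the genotype nor the cell type.

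H3 K9me2 and H3 K9me3 are marks of silent chromatin. They are written by methyltransferases such as G9a/GLP for the dimethyl form and SUV39H1/2 and SETDB1 for the trimethyl form, they are bound by heterochromatin protein HP1, and they lie mostly over repeats, gene-poor DNA and chromatin at the nuclear lamina. HAT1 acetylates newly made histone H4 before it is placed on replicating DNA. The study asked whether its loss changes the level of both marks when heterochromatin is rebuilt after replication.

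The sequences that carry the results are shown first, all from GRCm38.p6 (mm10), 5′ to 3′ and on the plus strand unless another is named. The first is a region of both marks within an intron of Gm49445, a long noncoding RNA, the one place on the chromosome that passed the genotype test in each mark after TMM scaling. Capitals mark 9 unbroken copies of ATTCC.

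H3 K9me2 repeat region, chr15:93827108-93827363: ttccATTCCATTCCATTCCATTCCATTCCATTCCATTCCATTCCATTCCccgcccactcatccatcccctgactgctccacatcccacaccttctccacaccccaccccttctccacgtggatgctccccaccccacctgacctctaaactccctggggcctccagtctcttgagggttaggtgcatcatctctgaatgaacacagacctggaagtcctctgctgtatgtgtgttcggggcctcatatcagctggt

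The region with by far the most reads of both marks lay between genes, 6.40 kb from the long noncoding RNA Gm28502. The 300 bases around its middle summit are printed, with bases that the reference does not mask as repeat in capitals.

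Highest region, chr15:75086296-75086595: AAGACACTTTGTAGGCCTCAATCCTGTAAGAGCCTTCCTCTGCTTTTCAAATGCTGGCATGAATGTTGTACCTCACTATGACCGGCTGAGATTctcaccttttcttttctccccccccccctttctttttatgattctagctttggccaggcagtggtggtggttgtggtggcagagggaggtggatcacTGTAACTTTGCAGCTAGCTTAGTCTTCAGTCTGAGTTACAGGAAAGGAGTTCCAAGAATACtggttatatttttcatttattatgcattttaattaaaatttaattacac

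Many regions were copies of one another. The H3 K9me3 region that matched the most others on the chromosome (71, at 80% identity or more over at least 100 bp) and one of its matches (itself matching 66) are shown with their longest identical run, 36 bases, in capitals. The second is written on the minus strand.

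Most-matched region, chr15:70549801-70550100: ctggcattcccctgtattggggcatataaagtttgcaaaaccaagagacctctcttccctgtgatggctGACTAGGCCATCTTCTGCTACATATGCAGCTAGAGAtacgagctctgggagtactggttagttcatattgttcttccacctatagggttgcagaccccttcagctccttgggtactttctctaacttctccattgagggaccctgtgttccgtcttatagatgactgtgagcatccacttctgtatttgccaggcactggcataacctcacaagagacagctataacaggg

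Its match, minus strand of chr15:13962201-13962500: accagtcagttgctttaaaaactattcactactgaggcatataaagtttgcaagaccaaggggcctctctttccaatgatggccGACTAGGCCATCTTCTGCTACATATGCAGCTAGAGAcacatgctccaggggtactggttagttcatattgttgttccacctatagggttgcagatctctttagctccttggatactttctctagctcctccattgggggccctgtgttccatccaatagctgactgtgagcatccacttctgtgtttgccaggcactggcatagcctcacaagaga

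The last pair are the middle 300 bases of the H3 K9me3 regions with the second largest KO library difference in each direction (mean count of at least 20). Capitals again mark bases not masked as repeat.

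Higher in KO library 2, chr15:14118465-14118764: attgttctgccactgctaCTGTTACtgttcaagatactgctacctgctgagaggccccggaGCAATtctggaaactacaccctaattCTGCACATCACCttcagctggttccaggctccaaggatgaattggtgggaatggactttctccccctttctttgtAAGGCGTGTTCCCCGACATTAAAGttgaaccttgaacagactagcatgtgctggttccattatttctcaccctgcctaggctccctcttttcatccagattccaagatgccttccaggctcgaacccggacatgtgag

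Higher in KO library 1, chr15:47511921-47512220: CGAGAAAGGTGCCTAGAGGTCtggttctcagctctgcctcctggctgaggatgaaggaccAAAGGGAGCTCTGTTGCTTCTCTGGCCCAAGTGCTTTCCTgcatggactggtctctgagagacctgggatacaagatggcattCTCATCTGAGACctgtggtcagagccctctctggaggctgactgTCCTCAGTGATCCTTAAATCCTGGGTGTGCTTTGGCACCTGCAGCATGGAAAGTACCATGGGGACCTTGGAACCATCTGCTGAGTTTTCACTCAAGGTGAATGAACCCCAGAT

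The regions lay where genes are few. Of the H3 K9me3 regions, 218 (35.9%) fell between 13 and 22 Mb, a stretch with 5 protein-coding genes, and 149 (24.5%) between 45 and 50 Mb, with 2. From 75 Mb to the end lay 526 of the 785 protein-coding genes of the chromosome (67.0%) but only 34 H3 K9me3 regions (5.60%) and 4 H3 K9me2 regions (4.26%). Across 102 bins of 1 Mb, Spearman's rho between the numbers of regions and of protein-coding genes was -0.588 for H3 K9me3 and -0.511 for H3 K9me2. Bins are not independent of each other, so these values describe the map and carry no test. The bins with the most H3 K9me3 regions started at 45 Mb and 47 Mb (36 each) and at 16 Mb (33). Those with the most H3 K9me2 regions started at 46 Mb and 49 Mb (6 each) and at 23 Mb, one of the bins with 5.

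**Figure D1:**
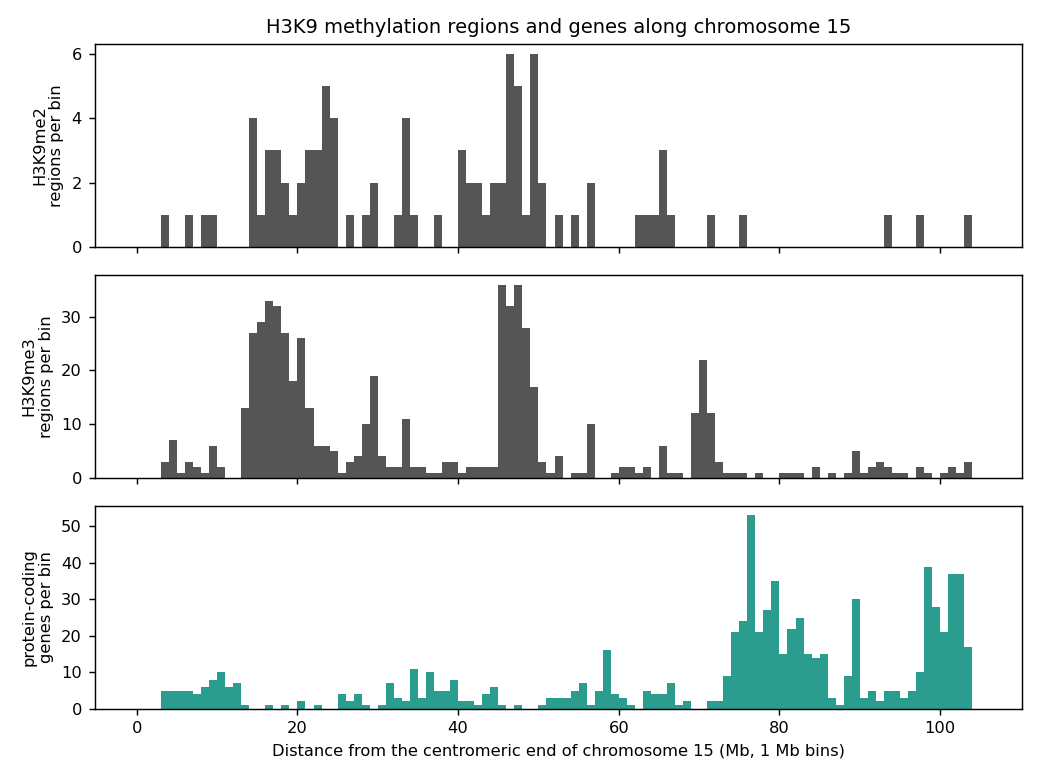
Numbers of H3 K9me2 regions, H3 K9me3 regions and protein-coding genes (y axes) in 1 Mb bins along chromosome 15 (x axis, Mb from the centromeric end). The H3 K9me3 regions pile up between 13 and 22 Mb and between 45 and 50 Mb, with up to 36 in a bin, and are sparse beyond 75 Mb, where most genes lie.

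Between genes lay 71 of the 94 H3 K9me2 regions and 428 of the 607 H3 K9me3 regions. Introns held 20 and 156, exons 3 and 20, and untranslated parts of exons 0 and 3. A gene was overlapped by 24.5% of the H3 K9me2 regions, against 41.4% on the other 18 autosomes, whereas for H3 K9me3 the share was 29.5% in both. The median region was 274 bp wide in H3 K9me2 and 292 bp in H3 K9me3, and the median GC content was 49.4% and 49.7%. Repeats masked in the reference covered a median of 66.3% of an H3 K9me2 region and 72.7% of an H3 K9me3 region, against 56.5% and 69.8% elsewhere. A single peak summit was listed in 90 H3 K9me2 regions (95.7%, against 80.6% elsewhere) and 536 H3 K9me3 regions (88.3%, against 86.9%). Another chromosome 15 region was matched in sequence by 49 H3 K9me2 regions (52.1%) and 367 H3 K9me3 regions (60.5%). How reads that fit several copies were assigned is not stated.

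Counts were low outside a few regions. Values are given in the order library 1 and library 2 of each genotype. The median count per region was 14 and 22 in KO libraries 1 and 2 and 13.5 and 11 in WT libraries 1 and 2 for H3 K9me2. For H3 K9me3 it was 18, 23, 13 and 11 in the same order. Whole libraries held between 4198682 and 8421762 reads, of which the chromosome 15 regions took between 0.0853% and 0.494%. The highest region alone took 76.0% to 82.2% of the H3 K9me2 reads on the chromosome and 30.7% to 40.8% of the H3 K9me3 reads. Sums of reads over the chromosome therefore follow that region, and medians over regions were used instead. The spread between libraries of one genotype was wide, with a biological coefficient of variation from edgeR of 47.9% in H3 K9me2 and 44.3% in H3 K9me3.

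The KO libraries differed from each other as the choice of chromosome required. After scaling by TMM factors, which set the bulk of all regions to no change, the median over H3 K9me2 regions of the log2 difference between KO library 2 and KO library 1 was 0.38, against -0.021 on the other autosomes. For H3 K9me3 it was 0.25, against 0.015. Both values ranked first among the 19 autosomes, the others running from -0.26 to 0.27 and from -0.19 to 0.19. The first rank was that of the median over all regions, and other measures ranked lower in at least one mark. In regions with a WT library highest the median ranked 17 (H3 K9me2) and 11 (H3 K9me3), and in those with a KO library highest 1 and 2. Summed over all regions of the chromosome, the log2 differences were -0.14 in H3 K9me2 (rank 9 of 19) and -0.03 in H3 K9me3 (rank 7), with KO library 2 below, and summed over regions with a mean count under 25 they were 0.24 (rank 5) and 0.10 (rank 3). Relative to the other autosomes the medians over regions were 0.40 and 0.23, values in which the library scaling nearly cancels. KO library 2 was above KO library 1 in 52 of 94 H3 K9me2 regions (55.3%, against 49.3% elsewhere) and in 351 of 607 H3 K9me3 regions (57.8%, against 50.3%). The regions thus spread widely to both sides, with the larger number on the side of KO library 2.

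The WT libraries also differed from each other. The numbers of KO and WT libraries were not taken as pairs, so the sign here cannot be set against that of KO. The median log2 difference between WT library 2 and WT library 1 was -0.18 in H3 K9me2 and -0.22 in H3 K9me3, and -0.16 and -0.12 relative to the other autosomes. These ranked 17th and 19th, the lowest, of 19. One pair of libraries per genotype gives no test of either difference. Across the 19 autosomes, the KO library differences of both marks had a Pearson's r of 0.576 and a Spearman's rho of 0.456, and of 0.401 and 0.360 without chromosome 15. For the WT libraries the values over 19 autosomes were 0.612 and 0.610. The 19 points come from 4 libraries of each mark, so these values describe those libraries only.

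**Figure D2:**
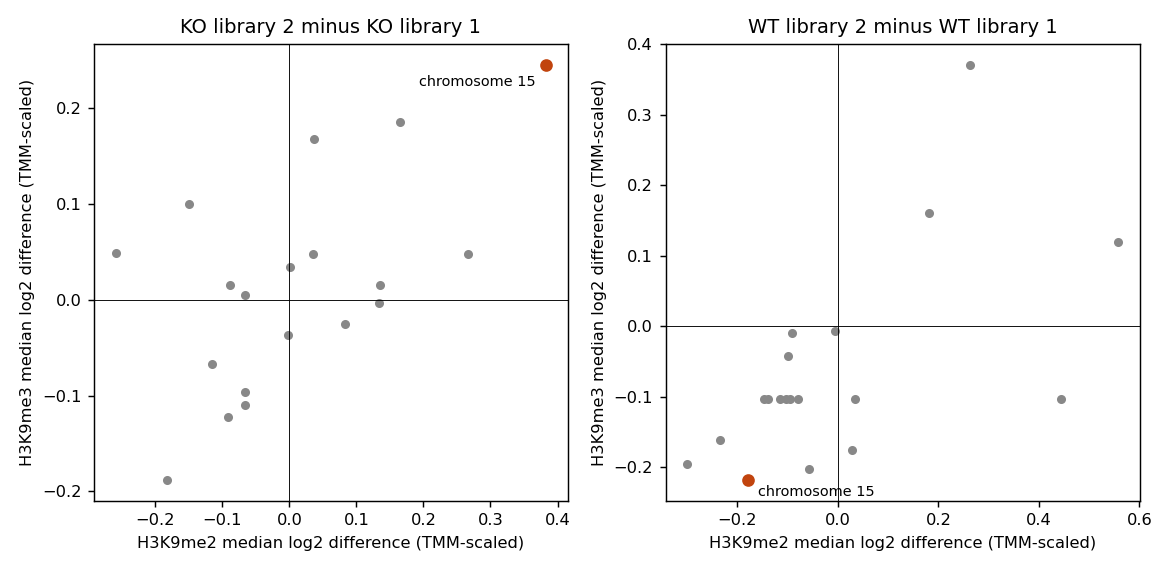
Median log2 difference between libraries of one genotype (TMM-scaled) for H3 K9me2 (x axis) and H3 K9me3 (y axis), 1 point per autosome with chromosome 15 in colour, for the KO libraries (left) and the WT libraries (right). Chromosome 15 is at the top right for KO (0.38 and 0.25) and has the lowest H3 K9me3 value for WT (-0.22).

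The same difference can be given as the share of regions in which each library was highest, which restates what chose the chromosome. KO library 2 was the highest of the 4, per library total (counts over the total reads of the library), in 50.0% of H3 K9me2 and 54.0% of H3 K9me3 regions, against 37.7% and 44.5% elsewhere. KO library 1 was the highest in 29.8% and 32.8%, against 30.5% and 37.3%. The H3 K9me3 regions with KO library 2 highest had a median difference of 0.71, against 0.68, and those with KO library 1 highest -0.97, against -0.94. In H3 K9me2 these medians were 1.17, against 0.83, and -1.04, against -0.81. The class itself fixes much of these values. In the 80 H3 K9me3 regions where a WT library was highest the median was -0.08, as elsewhere (-0.08), and in the 19 such H3 K9me2 regions it was -0.39, against -0.07.

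**Figure D3:**
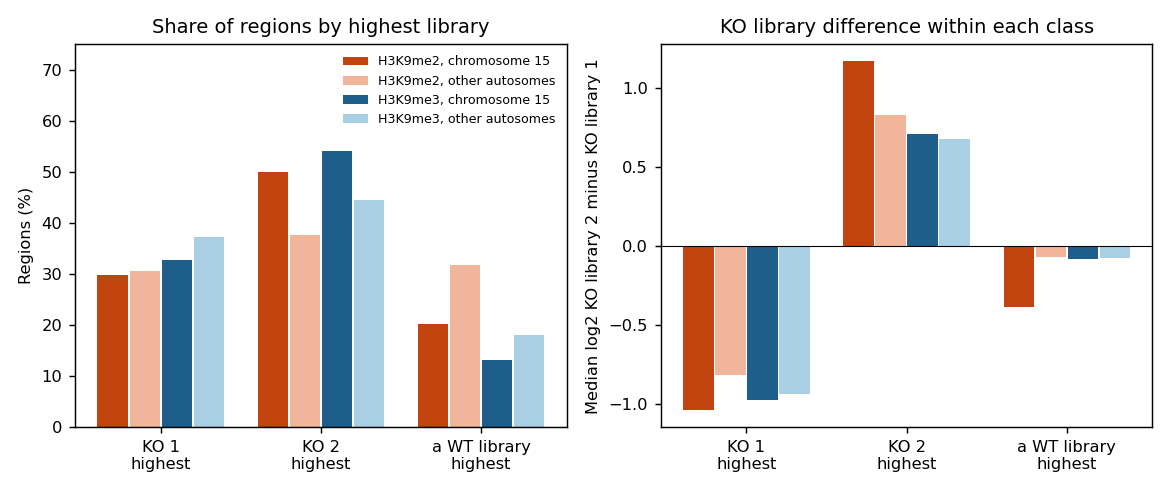
Left, share of regions (%) in which KO library 1, KO library 2 or a WT library was the highest per library total. Right, the median log2 difference between KO library 2 and KO library 1 (TMM-scaled) in each class, for both marks on chromosome 15 and on the other autosomes. KO library 2 was highest in 54.0% of H3 K9me3 regions on chromosome 15 and 44.5% elsewhere, with medians of 0.71 and 0.68 within that class.

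Regions with more reads showed the difference in only one of the marks. Among the 80 H3 K9me3 regions with a mean count of at least 25, the median was 0.19 on chromosome 15 and -0.09 elsewhere, and among the 5 such H3 K9me2 regions it was -0.21 and -0.17. The 4 H3 K9me2 regions with 2 or more summits had a median of -0.51, with KO library 2 above in 0 of 4, and the 71 such H3 K9me3 regions had -0.01, against -0.13 elsewhere. The value was alike in regions rich and poor in masked repeats. Regions at least 50% masked had medians relative to other autosomes of 0.41 (H3 K9me2) and 0.24 (H3 K9me3), and the less masked ones 0.41 and 0.24 as well. It was not alike at genes and between them. The relative medians were -0.12 in the 23 H3 K9me2 regions overlapping a gene and 0.41 in those between genes. In H3 K9me3 they were 0.17 and 0.28. Summed without the 10 highest regions, the chromosome 15 counts gave relative differences of 0.020 and 0.011 only.

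The difference did not sit in one stretch of the chromosome. Split at 35 and 70 Mb, the H3 K9me3 medians were 0.21, 0.31 and 0.19 over 318, 216 and 73 regions. The H3 K9me2 medians were 0.45, 0.21 and -0.18, the last over 5 regions only. Of the 28 bins of 1 Mb with at least 5 H3 K9me3 regions, 22 (78.6%) had a median above 0, against 51.3% of 799 such bins on other autosomes. The chromosome was chosen for this difference, so the larger share restates the choice. The bin starting at 56 Mb was the highest, with a median of 0.64 over 10 regions and 109, 225, 138 and 121 summed counts in KO 1, KO 2, WT 1 and WT 2. The bin starting at 24 Mb was the lowest, with -1.39 over 5 regions and 99, 72, 64 and 61 counts. In H3 K9me2, 2 of 4 such bins were above 0. The highest (1.22, 6 regions, 69 and 126 counts in KO) started at 46 Mb and the lowest (-0.94, 6 regions, 134 and 84 counts in KO) at 49 Mb, so bins 3 Mb apart went opposite ways.

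**Figure D4:**
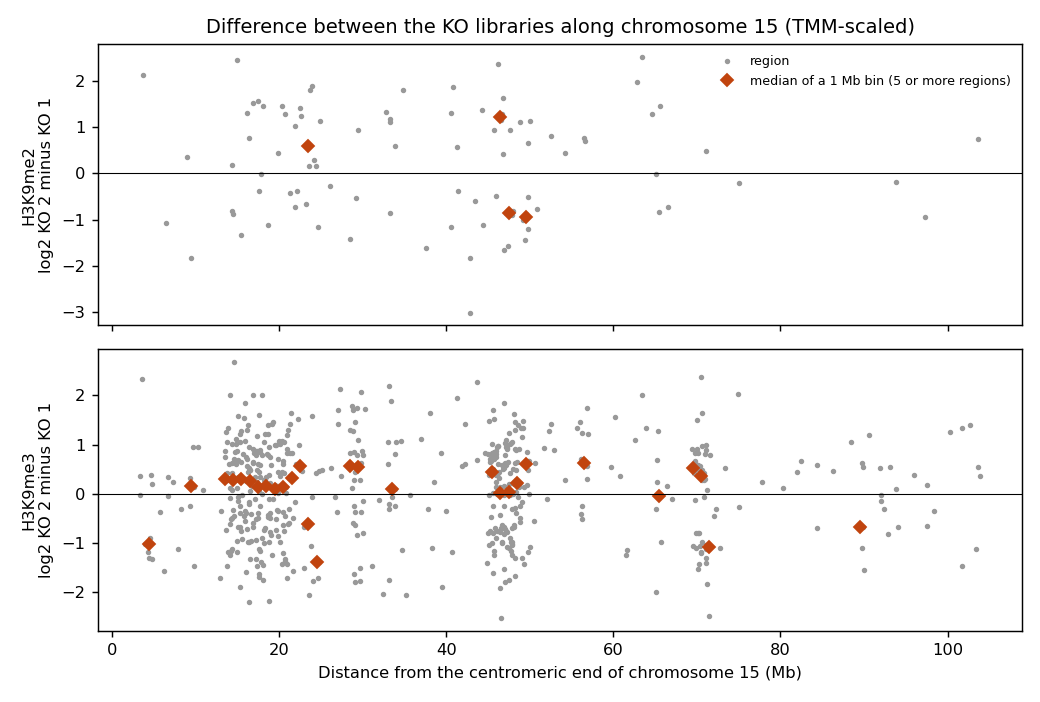
Log2 difference between KO library 2 and KO library 1 (TMM-scaled, y axis) at each region of H3 K9me2 (top) and H3 K9me3 (bottom) along chromosome 15 (x axis, Mb from the centromeric end). Diamonds are medians of 1 Mb bins with at least 5 regions, of which 22 of 28 lie above 0 for H3 K9me3 and 2 of 4 for H3 K9me2.

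At single regions the KO libraries could differ several-fold in either direction. The H3 K9me3 region printed above for KO library 2 (14118399 to 14118830) had 8 counts in KO 1, 42 in KO 2, 21 in WT 1 and 14 in WT 2. KO library 2 held 84.0% of its KO reads (95% exact binomial interval 70.9% to 92.8%), where its share of the KO library size after TMM scaling was 54.3%. The region printed for KO library 1 (47511813 to 47512327) had 44, 15, 21 and 15 counts, with 25.4% of KO reads in KO 2 (15% to 38.4%). KO library 1 was the highest in the second of these regions and the lowest in the first. Intervals cover counting error only, and the regions were picked for this difference.

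Some regions with a large KO library difference lay at genes and others did not. The H3 K9me3 region from 74862451 to 74862790, 6.13 kb from Cyp11b2 (aldosterone synthase), had counts of 5 and 28 (KO) and of 35 and 42 (WT). In these unscaled counts KO library 1 was the one apart from the other 3. After TMM scaling both KO libraries were below both of WT. An H3 K9me2 region between genes, from 23711021 to 23711437, had counts of 10 and 39 (KO) and of 17 and 16 (WT), so KO library 2 was apart. In an intron of Pced1b, the H3 K9me2 region from 97301079 to 97301506 had counts of 52 and 28 (KO) and of 16 and 22 (WT). Both KO counts exceeded those of WT there, but the edgeR log2 fold change of 0.84 (SE 0.66, FDR 0.790) did not pass. The most-matched H3 K9me3 region shown above had 5, 36, 15 and 14 counts in KO 1, KO 2, WT 1 and WT 2, and its match 8, 26, 27 and 4. In both copies KO library 2 exceeded KO library 1, while the WT libraries differed at the second only.

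Both marks were listed at few of the same places. Of the 94 H3 K9me2 regions 18 (19.1%) overlapped an H3 K9me3 region by at least 1 bp, against 39.6% on other autosomes, and the 18 were 2.97% of the H3 K9me3 regions, against 5.26%. In these 18 pairs KO library 2 was above KO library 1 in 9 for H3 K9me2, in 13 for H3 K9me3 and in 5 for both, and the difference had the same sign in 6. Where KO library 2 was above in H3 K9me2, it was so in H3 K9me3 in 5 of 9 pairs, and where it was not, in 8 of 9. The region from 14936604 to 14936843 had 3 and 22 H3 K9me2 counts in KO libraries 1 and 2, while the overlapping H3 K9me3 region had 22 and 11. By contrast, at 16220691 to 16220990 the H3 K9me2 counts were 6 and 17 and the H3 K9me3 counts at the overlapping region 15 and 46. These 2 pairs were picked after their values had been seen. KO was above WT in both marks in 13 of the 18 pairs per library total and in 5 of them after TMM scaling.

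The genotypes were compared next, to ask whether the marks differ without HAT1. Per library total, the level was higher in KO at 81 of 94 H3 K9me2 regions (86.2%, against 76.2% on other autosomes) and at 547 of 607 H3 K9me3 regions (90.1%, against 86.3%). The median log2 difference was 0.93 in H3 K9me2 and 1.10 in H3 K9me3. In which libraries the listed peaks were called is not stated. A list drawn mostly from peaks of the KO libraries would by itself hold more regions higher in KO. This limit covers the counts and medians of KO against WT here and below, and its size was not tested. The median RPM per region, with the pseudocount of 1 added, was 2.72 and 4.24 in KO 1 and KO 2 and 1.72 and 1.85 in WT 1 and WT 2 for H3 K9me2. For H3 K9me3 it was 4.53 and 5.19 in KO and 2.41 and 2.11 in WT. Each KO median exceeded each WT median in both marks (exact two-sided permutation test of library medians, p = 0.33, the smallest that 2 libraries against 2 can give).

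TMM scaling sets the bulk of all regions to no change, so it removes most of such a difference by construction. Over all regions its medians were 0.08 in H3 K9me2 and -0.01 in H3 K9me3. On chromosome 15 the medians became 0.26 (exact permutation p = 0.667) and 0.09 (exact permutation p = 1), n = 2 per group, and the library medians of the genotypes overlapped. Relative to the other autosomes in each library, the level on chromosome 15 differed between KO and WT by 0.08 in H3 K9me2 (exact permutation p = 1, n = 2 per group) and by 0.07 in H3 K9me3 (exact permutation p = 0.667, n = 2 per group). Left without KO library 2, the TMM medians of KO against WT were -0.08 and -0.02, and without WT library 2 that of H3 K9me3 was -0.05. Their direction therefore rested on single libraries.

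KO was above WT in every pairing of libraries, per library total, at 48 H3 K9me2 regions (51.1%, against 45.5% of all H3 K9me2 regions) and 377 H3 K9me3 regions (62.1%, against 57.6% of all). With TMM scaling it was 22 (23.4%, against 20.0%) and 112 (18.5%, against 17.3%). KO was below WT in every pairing at 8 (8.51%, against 16.7%) and 92 (15.2%, against 19.1%) with TMM scaling. The share on chromosome 15 was farthest from that of all regions for H3 K9me2 regions lower in KO, and the differences were not tested.

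By edgeR with TMM scaling, 1 of 94 H3 K9me2 regions and 1 of 607 H3 K9me3 regions passed a false discovery rate (FDR) of 0.05, both lower in KO. With TMM, lower means lower relative to the bulk of all regions. Neither TMM factors nor library totals were set from the human spike-in, so absolute levels are not given. Over all regions 1.92% of H3 K9me2 and 0.999% of H3 K9me3 regions passed, and 1.71% and 0.971% passed as lower. At an unadjusted p under 0.05, 2 H3 K9me2 regions passed (2.13%, against 9.33% of all regions; 1 higher, 1 lower) and 28 H3 K9me3 regions (4.61%, against 9.14%; 1 higher, 27 lower). With library totals the balance was the opposite, with 10 H3 K9me2 regions (10.6%, against 17.8%) and 159 H3 K9me3 regions (26.2%, against 23.3%) at an unadjusted edgeR p under 0.05, all higher in KO. With TMM, the call at an FDR of 0.05 was lost in both marks when either KO library was left out. With DESeq2, which gave an adjusted p at few of these regions (92 of 94 and 592 of 607 were NA), 1 and 2 regions were called, all lower, against 1.11% and 0.565% of all regions.

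Both calls were the same place, the ATTCC repeat in the intron of Gm49445. The H3 K9me2 region (93827107 to 93827363) had counts of 217 and 200 (KO) and of 360 and 288 (WT), an edgeR log2 fold change of -0.87 (SE 0.24, FDR 0.0298). The H3 K9me3 region (93826921 to 93827367) had counts of 320 and 410 (KO) and of 656 and 809 (WT), an edgeR log2 fold change of -1.64 (SE 0.35, FDR 8.40e-04). Both KO libraries lay below those of WT in each mark. In reads per library total (RPM), the H3 K9me2 levels were close, at 39.3 and 36.9 in KO and 42.7 and 44.3 in WT. Those of H3 K9me3 were 76.2 and 88.7 in KO and 113 and 142 in WT. Neither passed with library totals (edgeR FDR 0.698 and 0.220), whereas with the size factors of DESeq2 both did (DESeq2 adjusted p = 0.0471 in H3 K9me2 and 0.000273 in H3 K9me3).

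The sequence was searched for after the call had been seen. The letters ATTCCATTCCATTCCATTCC, in any of the 5 phases and on both strands, occurred in 1 chromosome 15 region of each mark and in 19 of 1933 H3 K9me2 (0.983%) and 23 of 14398 H3 K9me3 regions (0.160%) on the autosomes, X and Y. Each KO value was below each WT value after TMM scaling in all 19 and all 23, the chromosome 15 regions included. The share over all regions was 16.7% in H3 K9me2 and 19.1% in H3 K9me3. Per library total, the median RPM of the regions with these letters in H3 K9me2 was 15.6 and 15.9 in KO and 15.4 and 14.5 in WT. In H3 K9me3 it was 22.4 and 25.5 in KO and 35.8 and 47.8 in WT. The median log2 difference, KO against WT, over these regions was -0.75 and -1.54 with TMM, and -0.08 and -0.53 per library total. They held 4 of the 34 lower H3 K9me2 calls of the genome (11.8%) and 17 of the 141 lower H3 K9me3 calls (12.1%). They also had more reads than others, with a median mean count of 94.25 against 16.5 in H3 K9me2 and of 182.5 against 15.75 in H3 K9me3. As background, tandem ATTCC is the unit of a human satellite DNA, and human cells were added to every sample. The part of reads from human cells in these counts was not tested.

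The highest region of both marks was on the other side. It had H3 K9me2 counts of 8122 and 7341 (KO) and of 5494 and 4514 (WT), and H3 K9me3 counts of 8041 and 7964 (KO) and of 5509 and 3982 (WT), with 12 summits in each mark. Each KO count exceeded each WT count. Per library total its edgeR log2 fold change was 1.07 (SE 0.31, FDR 0.0146) in H3 K9me2 and 1.14 (SE 0.31, FDR 0.0340) in H3 K9me3, where 5.5% and 0.785% of all regions passed as higher. These sizes are close to the medians over the chromosome on that scale, 0.93 and 1.10. With TMM the values at the region were 0.40 (edgeR FDR 0.669) and 0.12 (edgeR FDR 0.965). One more H3 K9me3 region passed per library total, 14.9 kb from the microRNA gene Gm24643 (89903919 to 89904509), with counts of 63 and 47 (KO) and of 23 and 12 (WT) and an edgeR log2 fold change of 2.04 (SE 0.55, FDR 0.0307).

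**Figure D5:**
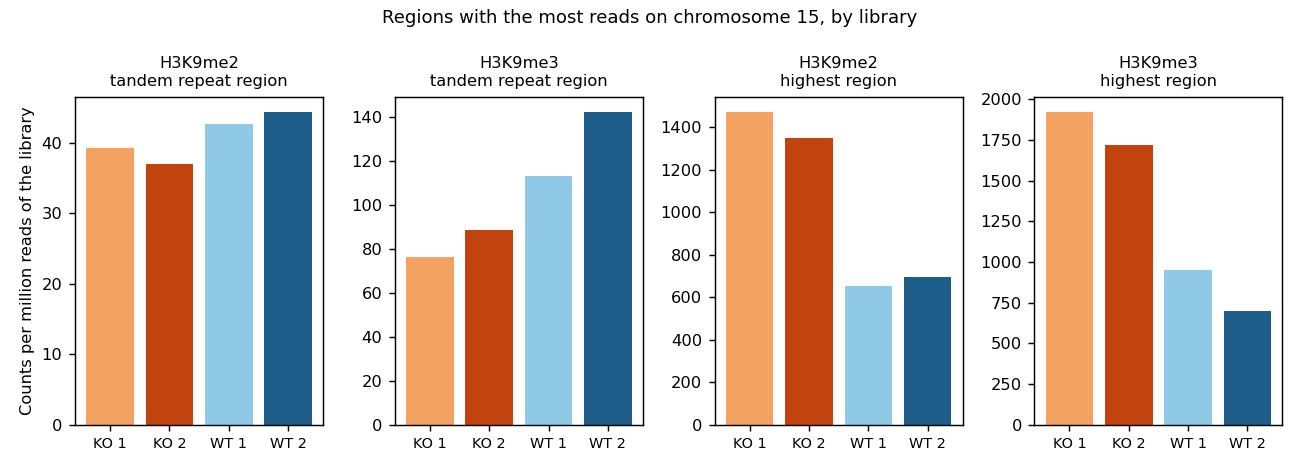
RPM, reads scaled by the library total (y axis, from 0), in KO 1, KO 2, WT 1 and WT 2 at the tandem repeat region and at the highest region of chromosome 15, in both marks, 1 bar per library. At the highest region both KO bars are above both WT bars, and at the repeat region both are below, by little in H3 K9me2 (36.9 and 39.3 against 42.7 and 44.3).

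In H3 K9me3, 3 regions had an FDR between 0.05 and 0.1, all lower in KO. They were one between genes (29803754 to 29804316, log2 fold change -1.81, edgeR FDR 0.0634), the one near Cyp11b2 (-1.89, edgeR FDR 0.0798), in which KO library 1 stood apart, and one in an intron of Vps13b (35719061 to 35719724, -1.81, edgeR FDR 0.0993). Vps13b encodes a lipid transfer protein of the Golgi. Its region had counts of 16 and 19 (KO) and of 33 and 47 (WT). Among regions that did not pass, the largest H3 K9me3 fold changes with KO above WT in every pairing and a mean count of at least 20 were at 17962681 (1.32, SE 0.70, edgeR FDR 0.588), 45548128 (1.18, SE 0.70, edgeR FDR 0.666) and 45351508 (1.07, SE 0.70, edgeR FDR 0.721), all between genes. The first had counts of 30 and 36 (KO) and of 7 and 10 (WT).

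Genes of the chromosome differed in how many regions they held. The type II cadherins, cell adhesion proteins of neurons and other cells, lie in its gene-poor first part, and all 5 had H3 K9me3 regions in or within 5 kb of them, 45 in all. Cdh12 had 28, Cdh10 had 8, Cdh9 and Cdh18 had 4 each and Cdh6 had 1. Csmd3, a very large gene for a membrane protein with CUB and sushi domains, had 39. These numbers were not adjusted for gene length or for the number of regions nearby. Per library total the level was higher in KO at 28 of 28 regions of Cdh12, 8 of 8 of Cdh10, 4 of 4 of Cdh9, 4 of 4 of Cdh18, 1 of 1 of Cdh6 and 38 of 39 of Csmd3, where 90.1% of the H3 K9me3 regions of the chromosome were. These counts depended on the scaling. After TMM scaling it was higher at 21 of 28 regions of Cdh12, 8 of 8 of Cdh10, 3 of 4 of Cdh9, 1 of 4 of Cdh18, 0 of 1 of Cdh6 and 30 of 39 of Csmd3, against 54.2% of those of the chromosome. None of these regions passed the edgeR test in either scaling. KO library 2 was above KO library 1 in 17 of 28 at Cdh12, 4 of 8 at Cdh10, 4 of 4 at Cdh9, 2 of 4 at Cdh18, 0 of 1 at Cdh6 and 22 of 39 at Csmd3. H3 K9me2 regions were 2 at Cdh12, 2 at Cdh18 and 3 at Csmd3.

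Zfpm2, a cofactor of GATA factors, had 1 region of each mark. Its H3 K9me2 region had counts of 5 and 22 (KO) and of 13 and 16 (WT), and its H3 K9me3 region 20 and 10 in KO and 3 and 2 in WT, so the KO libraries were in opposite order. Apol8 was within 5 kb of 1 H3 K9me3 region, with counts of 14 and 20 (KO) and of 22 and 27 (WT). Neither mark had a region at the 9 Hoxc patterning genes, the 27 keratin genes, the 17 Ly6/uPAR surface protein genes, the 9 Cyp2d genes, Myc with Pvt1, Trps1, or the 11 zinc-finger genes of the list used here, which does not hold Zfpm2. Of the 936 promoters that the RefSeq table gives for the chromosome, only that of Gtsf1 was overlapped by a region. Gtsf1 encodes a factor of the transposon-silencing piRNA pathway in germ cells. Counts at this H3 K9me3 region (103430358 to 103430612) were 21 and 11 in KO and 10 and 18 in WT, and the genotypes overlapped.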

How the data were processed

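H3 K9me2 and H3 K9me3 were profiled by ChIP-seq in 2 KO and 2 WT libraries each, grouped by title. Per the labels, the authors used BWA 0.7.12 to align the read pairs (mm10) and MACS2 2.1.0 to call peaks, and named DiffBind. Duplicate and mapping-quality filters are not given in the sources used here. The deposited counts are whole reads per region and library, not normalized. The deposited RPM values are the count plus 1 over 1 total per library, from which the totals were recovered; whether human reads are in those totals is not stated. The deposited fold enrichment ratio and the columns comparing genotypes (fold changes, p-values, q-values) were not used.

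Repeat rows were removed (62 of 2045 and 314 of 14829). Coordinates are as deposited, with starts counted from 0, and those of printed sequences are counted from 1. Genes are from GENCODE M21 and promoters from the RefSeq table. Differences are log2 of scaled counts with a pseudocount of 1. RPM of single regions and of the ATTCC regions was taken without it. edgeR 4.0.16 (glmQLFit and glmQLFTest, TMM, no filter, no block) was run on all regions of each mark with Benjamini-Hochberg adjustment and a threshold of 0.05; SE is the fold change over the root of F. It was tested on simulated data. Library medians were compared by an exact permutation test. Matches between regions came from blastn 2.17.0, overlaps from bedtools 2.31.1.

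Named regions were, per mark, those called, the 3 with the most reads, the 3 largest and 3 smallest KO library differences and KO to WT fold changes (mean count of at least 20, for the latter with the genotypes apart), the bins with the most regions and the largest or smallest medians, and genes of fixed lists; others are said to be chosen later. The members, the lists and the tests were chosen with earlier results of these data known. Replicates are separate libraries, and p-values measure only the spread between them.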

Additional observations from a re-analysis of the deposited data

How the results depend on the processing

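The scaling set the direction of the calls. Using only library totals, 1 H3 K9me2 and 2 H3 K9me3 regions were called, all higher in KO, in place of 1 lower region in each mark, and the median differences between genotypes rose to 0.93 and 1.10. With library size taken as the counts in regions, 0 H3 K9me2 regions were called and the H3 K9me3 median was 0.45. At an FDR under 0.01, 0 H3 K9me2 regions were called. For H3 K9me3, DESeq2 called 2 regions and an FDR under 0.1 gave 4. With 1 library left out, the calls ran from 0 (without either KO library) to 1 in H3 K9me2, and in H3 K9me3 from 0 (without either KO library) to 5 (without WT library 1), with 4 without WT library 2; the lone library of a group is then assumed to vary like the others. The TMM medians between genotypes ran from -0.079 (without KO library 2) to 0.41 in H3 K9me2 and from -0.052 (without WT library 2) to 0.17 in H3 K9me3, with -0.02 without KO library 2, and the H3 K9me3 median was -0.060 with a pseudocount of 5. The cause was not tested.

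The KO library difference relative to other autosomes fell to 0.020 (H3 K9me2) and 0.011 (H3 K9me3) on summed counts without the 10 highest regions. Of alternatives chosen after seeing the data, regions with a WT library highest gave -0.32 and -0.0036, H3 K9me2 regions with 2 or more summits -0.32 and those with a mean count of at least 25 -0.039. The WT library difference became -0.29 and -0.34 on summed counts, -0.50 and -0.63 in regions with a WT library highest, and -0.30 in H3 K9me3 regions with 2 or more summits. The other 68 alternative values kept their direction and stayed within 1 SD between replicates, or for counts within 1.5 times.

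KO and WT libraries of the same number showed no shared deviations (Pearson's r 0.0303 in H3 K9me2 and 0.00402 in H3 K9me3, across all regions), so the numbers were not taken as pairs. With the replicate number as a block, 1 region of each mark was called, and the median differences between genotypes were 0.26 and 0.09, both as without it.

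Depth limits single regions, whose median count lay between 11 and 23 in every library, and 2 libraries per group limit the test of genotypes.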
